A study of Mus musculus with 8 samples.

Results

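The 10 genes described here encode factors that start translation in the cytosol, namely Eif5, Eif1, Eif2s1, Eif2s2, Eif5b, Eif4e, Eif4a1, Eif4g1, Eif4ebp1 and Eif3a. They were chosen as a named list, and array probes were assigned to them when the RefSeq transcript of the probe mapped to one of the 10 symbols. They are 10 of 17531 genes or unnamed transcripts that passed the filter on dim probes. The list was selected on the genotype contrast, because the low p of Eif5, lower in mutants, was known when it was drawn up. Every value of mutant against wild type for these genes is therefore given as a description, with no test.

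The livers came from mice homozygous for a mutant allele of Pus1 and from wild-type mice. All 8 animals were C57BL/6J after 5 generations of backcrossing and were 14 to 16 weeks old. Each genotype had 4 livers, 2 from females and 2 from males. Each of 4 arrays paired a mutant with a wild type, females on arrays 1 and 2 and males on arrays 3 and 4. The sources used here do not say how the allele was made or in which cells it acts. The product of Pus1 turns uridines of transfer RNAs and other RNAs into pseudouridines.

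Translation begins when the eIF2 complex, bound to GTP, delivers the initiator methionyl transfer RNA to the small ribosomal subunit. The eIF4F complex binds the cap of the messenger RNA and unwinds its start, and the ribosome then scans to the start codon. In liver this machinery serves a high output of secreted plasma proteins, and phosphorylation of eIF2 and of the eIF4E-binding proteins is the best known route by which stress and nutrients adjust it. The arrays measured transcripts only, so neither protein nor phosphorylation was seen.

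RefSeq promoter windows on GRCm38.p6 were matched for 9 of the 10 genes. Eif4e had a window at each of 2 annotated starts, which made 10 windows, and Eif4ebp1 was not matched. The 250 bases before each start were searched on both strands for 3 motifs, CACGTG (the E-box bound by Myc and its relatives), CCAAT (the CCAAT box, ATTGG on the other strand) and TGACGTCA (the cAMP response element). None of the matches overlapped another. The stretches below are shown because CACGTG lay in a window of each of Eif4e, Eif4a1 and Eif4g1, the 3 subunits of eIF4F. Both Eif4e matches lay in its window at chr3:138527018-138527317, and none of the 3 motifs lay in its other window, at chr3:138525941-138526240. The last 120 of the 250 bases searched before Eif5 are added, because Eif5 was the only member whose genotype groups did not overlap. Capitals mark CACGTG, each sequence reads 5′ to 3′ along the strand of the gene, and all are from RefSeq, GRCm38.p6.
Eif4e, chr3:138527018-138527075, plus strand: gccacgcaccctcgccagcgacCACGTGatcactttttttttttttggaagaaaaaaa
Eif4e, chr3:138527174-138527239, plus strand: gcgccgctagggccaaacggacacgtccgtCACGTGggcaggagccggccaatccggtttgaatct
Eif4a1, chr11:69672577-69672642, minus strand: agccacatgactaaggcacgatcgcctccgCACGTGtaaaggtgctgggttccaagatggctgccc
Eif4g1, chr16:20672643-20672708, plus strand: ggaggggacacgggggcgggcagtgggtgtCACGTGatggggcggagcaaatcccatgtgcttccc
Eif5, chr12:111537981-111538100, plus strand: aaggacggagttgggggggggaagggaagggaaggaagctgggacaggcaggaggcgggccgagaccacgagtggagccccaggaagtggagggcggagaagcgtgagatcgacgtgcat

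CACGTG was present in 3 of the 10 windows, against 6.02% of 32851 mouse promoter windows of the same length. CCAAT was present in 3 windows, those of Eif1, Eif4a1 and Eif4e, against 33.8% of all windows. TGACGTCA was present in 0 of the 10 windows, against 1.55% of all. The window of Eif5 held none of these 3 motifs. A match is a string of letters in this window and does not show that a factor binds there.

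The arrays showed the labelled genotype in Pus1 itself, whose signal cleared the background in 4 of 4 wild-type livers but in 0 of 4 mutant livers. The wild-type level was at least 3.80-fold the mutant level, a bound set against the dimmest signals called above background in the mutants. Between 42.2% and 44.0% of spots were well above background in the female livers and between 36.8% and 37.9% in the male livers. Array 2 stood apart, with a standard deviation of log2 ratios over genes of 0.617, against 0.354, 0.313 and 0.269 on arrays 1, 3 and 4. All 10 hepatocyte markers tested, albumin among them, were well above background in all 8 livers. In mutants, 13 of 13 Kupffer cell markers tested had ratios above 0 (median log2 0.66), as did 5 of 5 neutrophil markers (median 0.64) and 8 of 9 proliferation genes (median 1.12). Ratios were above 0 on all 4 arrays for 12 Kupffer markers, 8 proliferation genes and 1 neutrophil marker, beside 8.99% of all genes. Signals were well above background in all 8 livers for 11 of the Kupffer markers, 4 of the neutrophil markers and 4 of the proliferation genes. The rest could pass the filter through the livers where they were higher. The neutrophil median was −0.09, 1.62, 0.76 and 0.67 on arrays 1 to 4. The mean log2 level of the Kupffer markers ran from 10.04 to 10.85 in wild types and from 10.71 to 11.28 in mutants. That of the neutrophil markers ran from 7.95 to 9.45 and from 9.36 to 9.85, and that of the proliferation genes from 6.93 to 7.92 and from 7.78 to 9.53. Their part in the genotype values below was not tested, and in whole liver more cells of a type and more RNA per cell cannot be told apart.

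All 15 probes of the 10 genes passed the filter, which asked for a probe to be well above background in 4 or more of the 8 livers. There were 2 probes for 5 of the genes and 1 for the other 5, and the brighter probe stands for the gene unless stated. In 9 of the 10 genes that probe was well above background in all 8 livers, and for Eif5b it was so in 5. The 10 genes lie on 8 chromosomes, and 0 of them on chromosome 5, which carries Pus1. Relative to wild type, 4 of the genes had log2 ratios above 0 (47% of all genes did) and 6 below 0, with a median of −0.02 beside −0.01 for all 17531. The ratio had 1 sign on all 4 arrays in 1 of the 10, Eif5, against a background of 17.7% of all genes. Across all genes 0% passed the limma genotype test at an adjusted p under 0.05, while 1561 of 17531 (8.9%) had an unadjusted p under 0.05. Pus1 itself, with a fitted log2 ratio of −2.035 ± 0.109 (SE), did not pass either (limma adjusted p 0.0567). A gene that did not pass may therefore still differ between the genotypes. The levels of the members in each liver are plotted by genotype and sex.

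**Figure D1:**
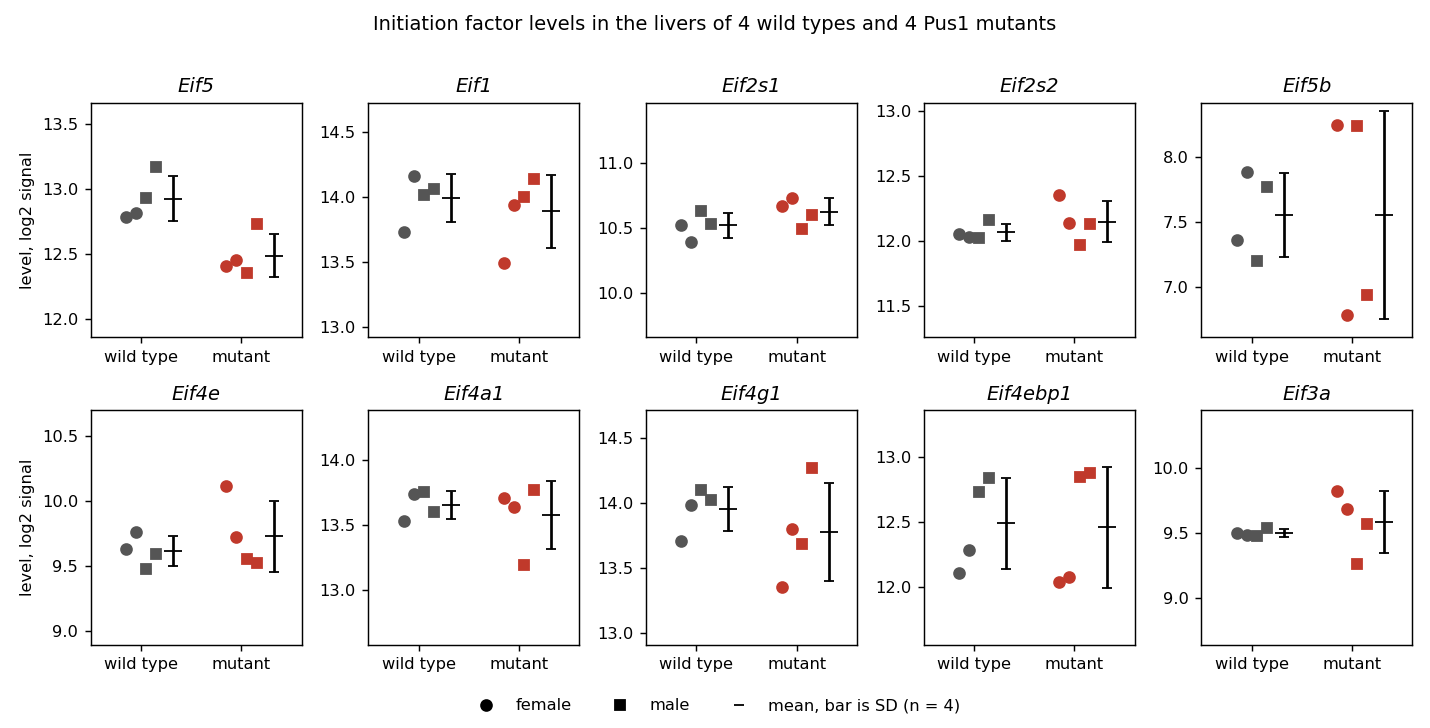
Level (log2 signal, vertical axis) of each of the 10 genes in 4 wild-type and 4 mutant livers. Circles are females, squares are males, and the bar is the mean with its SD (n = 4). Every panel spans the same number of log2 units. The 4 mutant points of Eif5 lie between 12.36 and 12.73, all under the wild-type points, while the points of the other 9 genes overlap between genotypes.

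Eif5 is the GTPase-activating protein of eIF2, which triggers GTP hydrolysis when the start codon is met. It lies at chr12:111538101-111546753 on the same build. Its level was 12.79, 12.82, 12.93 and 13.17 log2 units in wild types 1 to 4, and 12.41, 12.46, 12.36 and 12.73 in mutants 1 to 4. The lowest wild type was thus above the highest mutant, and in each genotype the highest level was that of male 4. The means were 12.93 ± 0.17 in wild types and 12.49 ± 0.17 in mutants (SD, n = 4). No overlap between the genotypes was found in 1 of the 10 members, against 2.2% of all genes.

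The log2 ratio of Eif5 in mutant over wild type was −0.38, −0.37, −0.58 and −0.44 on arrays 1 to 4. The fitted ratio was −0.44 ± 0.10 (SE), so that the wild-type level was 1.36-fold the mutant level. The dimmer probe of Eif5 gave −0.19, −0.15, −0.75 and −0.26, with a fitted −0.33 ± 0.13. Both probes were thus lower in the mutant on all 4 arrays, and in both the male pair of array 3 had the ratio farthest from 0. Without array 2, whose ratios spread most over genes, the ratio of the brighter probe was −0.46. On the dimmer probe the genotypes overlapped, since mutant 4 (12.20) lay above wild types 1 and 2 (12.19 and 12.17).

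Eif1 guards the accuracy of start codon choice by keeping the scanning ribosome in an open state. Its level was 13.73, 14.16, 14.02 and 14.06 in wild types and 13.49, 13.94, 14.00 and 14.14 in mutants. The pair of array 1, both females, held the lowest level of each genotype, and the groups overlapped. The fitted log2 ratio was −0.10 ± 0.11 (SE, n = 4 arrays), and the dimmer probe gave −0.01 ± 0.10.

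Eif2s1 and Eif2s2 encode the alpha and beta subunits of eIF2, and the alpha subunit carries the serine that stress kinases phosphorylate. Eif2s1 ranged from 10.39 to 10.63 in wild types and from 10.49 to 10.73 in mutants, which overlapped. Its fitted log2 ratio was 0.11 ± 0.11 by the brighter probe and −0.17 ± 0.12 by the dimmer probe, so the probes had opposite signs. Eif2s2 ranged from 12.02 to 12.16 in wild types and from 11.97 to 12.35 in mutants. Its fitted log2 ratio was 0.08 ± 0.11, with the largest array value, 0.30, on array 1, and −0.02 ± 0.10 by the dimmer probe. These subunits were also the members that varied least. The SD of the log2 level over the 8 livers was 0.11 for Eif2s1 and 0.12 for Eif2s2, which are percentiles 4.64 and 6.51 of all genes, whose median SD was 0.25.

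Eif5b is the GTPase that joins the large ribosomal subunit to the small one at the start codon. Its level was 7.36, 7.89, 7.20 and 7.77 in wild types 1 to 4, and 8.25, 6.79, 8.24 and 6.94 in mutants 1 to 4. Mutants 1 and 3 were the highest of the 8 livers and mutants 2 and 4 the lowest. The log2 ratio was accordingly 0.89, −1.10, 1.04 and −0.83 on arrays 1 to 4, and the fitted ratio was −0.00 ± 0.11 (SE), or −0.34 with the processed signals of the scanner software.

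The alternation of Eif5b followed the dye. The 4 livers labelled with Cy5, mutants 1 and 3 and wild types 2 and 4, had levels of 8.25, 8.24, 7.89 and 7.77. The 4 labelled with Cy3 had 7.36, 7.20, 6.79 and 6.94, all below the lowest Cy5 liver. The probe was well above background in 4 of 4 Cy5 livers and in 1 of 4 Cy3 livers. The fitted dye term was 0.96 ± 0.11 log2 units of Cy5 over Cy3 (SE). Because 3 of the 4 Cy3 livers were not well above background, this size is not an exact measure of the dye difference. Its adjusted p was 0.179 in the limma fit, in which 0 of 17531 genes (0%) passed for dye and 1288 (7.35%) had an unadjusted p under 0.05. Each genotype held both dyes equally. The dye term of each of the other 9 members was at most 0.20 in size. The plots of Eif5b by dye and of all dye terms show this.

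**Figure D2:**
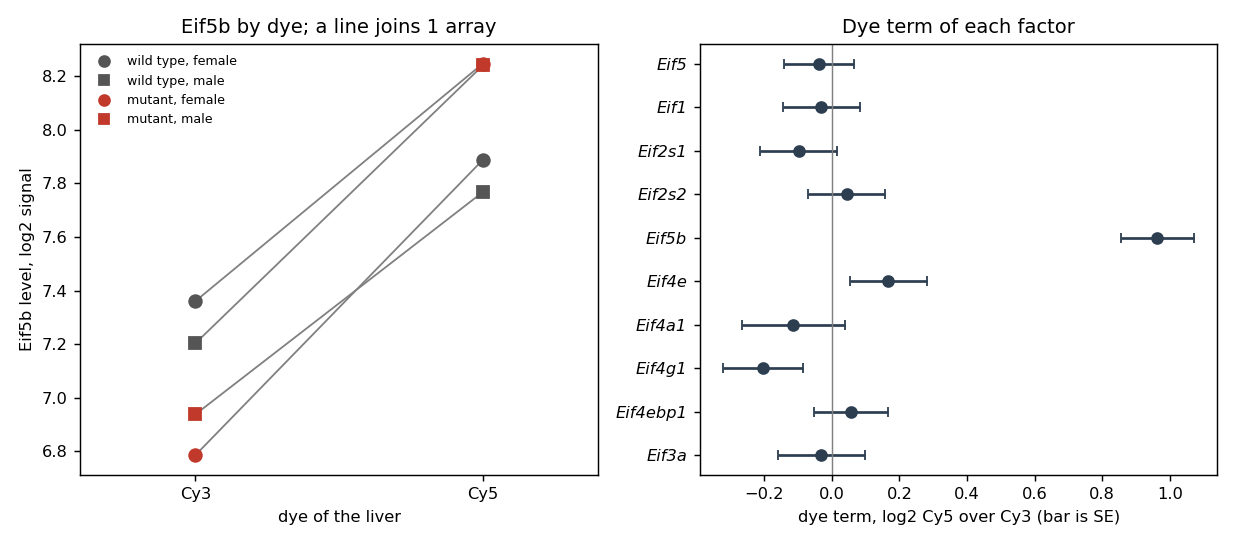
Left, level of Eif5b (log2 signal) in the livers labelled with Cy3 and with Cy5, where a line joins the livers of 1 array; each line climbs toward Cy5. Right, fitted dye term of each gene (log2 Cy5 over Cy3, bar is the SE); Eif5b lies at 0.96 and no other gene beyond 0.20 in size.

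Eif4e binds the cap, Eif4a1 encodes the main RNA helicase of eIF4F, and Eif4g1 encodes the scaffold that joins them to the ribosome. The level of Eif4e was 9.63, 9.76, 9.48 and 9.59 in wild types 1 to 4 and 10.12, 9.72, 9.56 and 9.52 in mutants 1 to 4. Mutant 1 was the highest liver and the genotypes overlapped. The fitted log2 ratio was 0.11 ± 0.12 (SE), with 0.49 on array 1 and between −0.07 and 0.08 on the others. The dimmer probe gave 0.13 ± 0.13, again with its highest value, 0.49, on array 1.

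Eif4a1 ranged from 13.53 to 13.75 in wild types and from 13.19 to 13.77 in mutants, where mutant 3 was the lowest of all. Its fitted log2 ratio was −0.08 ± 0.15, and its array 3 value of −0.56 lay apart from the others, between −0.10 and 0.17. For Eif4g1 the level was 13.71, 13.99, 14.10 and 14.03 in wild types and 13.36, 13.80, 13.69 and 14.27 in mutants. Eif4g1 was lower in the mutant on arrays 1 to 3 and higher on array 4 (0.24), with a fitted log2 ratio of −0.17 ± 0.12. The ratios of every probe on every array are plotted together.

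**Figure D3:**
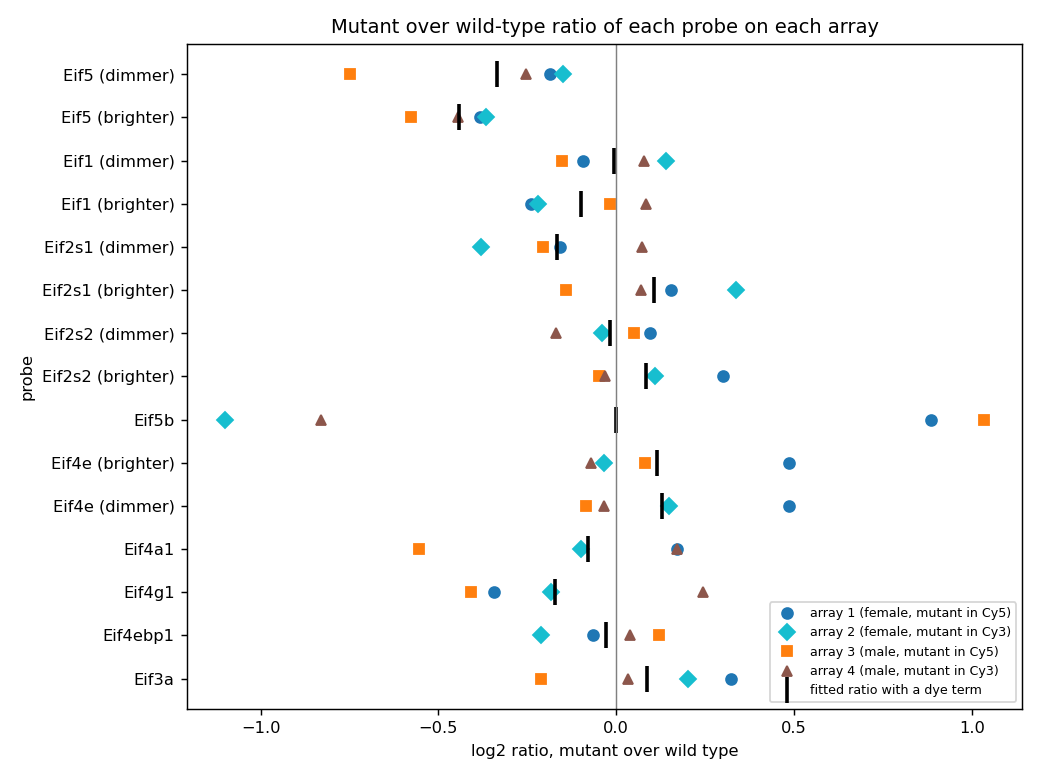
Log2 ratio of mutant over wild type (horizontal axis) of the 15 probes of the 10 genes. Each symbol is 1 array, coloured and shaped by array, and the black bar is the fitted ratio. Both Eif5 probes have all 4 symbols left of 0, and the symbols of Eif5b fall on either side by the dye of the mutant.

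Eif4ebp1 encodes 4E-BP1, which binds eIF4E and keeps it from eIF4G unless phosphorylated by mTOR. Its level was 12.11, 12.29, 12.73 and 12.84 in wild types and 12.04, 12.08, 12.85 and 12.88 in mutants. The genotypes overlapped, with a fitted log2 ratio of −0.03 ± 0.11 (SE), but the males of both genotypes lay above every female. Eif3a encodes the largest subunit of eIF3, the scaffold that holds initiation factors on the small ribosomal subunit. Its level stayed between 9.48 and 9.54 in wild types (SD 0.03) and ran from 9.27 to 9.83 in mutants (SD 0.24). Its fitted log2 ratio was 0.09 ± 0.13.

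Sex was not used to choose the members, so it was tested. Males and females never shared an array, and the sexes differed in the share of spots above background as given above. The limma separate-channel fit called 37 of 17510 genes (0.211%) at an adjusted p under 0.05, and 0 of the 10 members. On simulated data with 4 arrays, that fit was too cautious where it estimated a simulated within-spot correlation of 0.793 as 0.966. It was not too cautious when given 0.793, the value used for the livers. The simulation thus does not show whether the fit to the livers was too cautious. A limma fit on the mean of both channels of each array, 2 male against 2 female arrays, was added after the data were seen. It called 2011 of 17510 genes (11.5%), with males the higher sex for 1003 (5.73%) and females for 1008 (5.76%). Of the members it called 1, Eif4ebp1, a share near the background. Levels of males and females did not overlap for 2 of the 10 members, Eif4ebp1 and Eif4e, against 24.3% of all genes.

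Eif4ebp1 was 0.69 log2 units higher in males than in females, a 1.62-fold difference, with means of 12.83 ± 0.07 and 12.13 ± 0.11 (SD, n = 4 each). Its adjusted p was 0.124 in the separate-channel fit (SE 0.14) and 0.0262 with array averages (SE 0.12). When any 1 array was left out, the difference lay between 0.64 and 0.75, but with array averages its adjusted p was 0.110, 0.0515, 0.121 and 0.138 without arrays 1, 2, 3 and 4. The call by array averages was therefore lost whichever array was left out, with 1 array of a sex then remaining. All 4 males lay above all 4 females, from 12.73 to 12.88 against 12.04 to 12.29, as in 12.6% of all genes.

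Eif4e lay the other way. Its brighter probe was 0.27 log2 units lower in males, from 9.48 to 9.59 against 9.63 to 10.12 in females (11.7% of all genes had all males below all females), and did not pass (limma adjusted p 0.505, and 0.174 with array averages). Its dimmer probe differed by −0.61, with a limma adjusted p of 0.257 and, with array averages over all probes, of 0.0519. Both probes of Eif4e were thus lower in males without passing the threshold.

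The other 8 members did not pass either test. Of the 10 members 4 were higher in males, against 50.6% of all genes. For those 8, the male minus female differences were 0.31 for Eif4g1, 0.22 for Eif1 and 0.18 for Eif5. These values rested on few arrays. Without array 1, Eif4g1 stood at 0.14 and Eif1 at 0.00017, and without array 2 at 0.49 and 0.44. Eif5 stood at 0.025 without array 4 and at 0.33 without array 3. The differences of the others were −0.16 for Eif3a, −0.08 for Eif4a1, −0.07 for Eif2s2, −0.03 for Eif5b and −0.02 for Eif2s1. The widest 95% intervals left room for differences of either sign, from −0.55 to 0.48 for Eif5b and from −0.20 to 0.65 for Eif1. The dimmer probe of Eif1 gave −0.09 and that of Eif2s2 gave 0.15, each opposite in sign to the brighter probe. The plot of sex differences sets these intervals side by side.

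**Figure D4:**
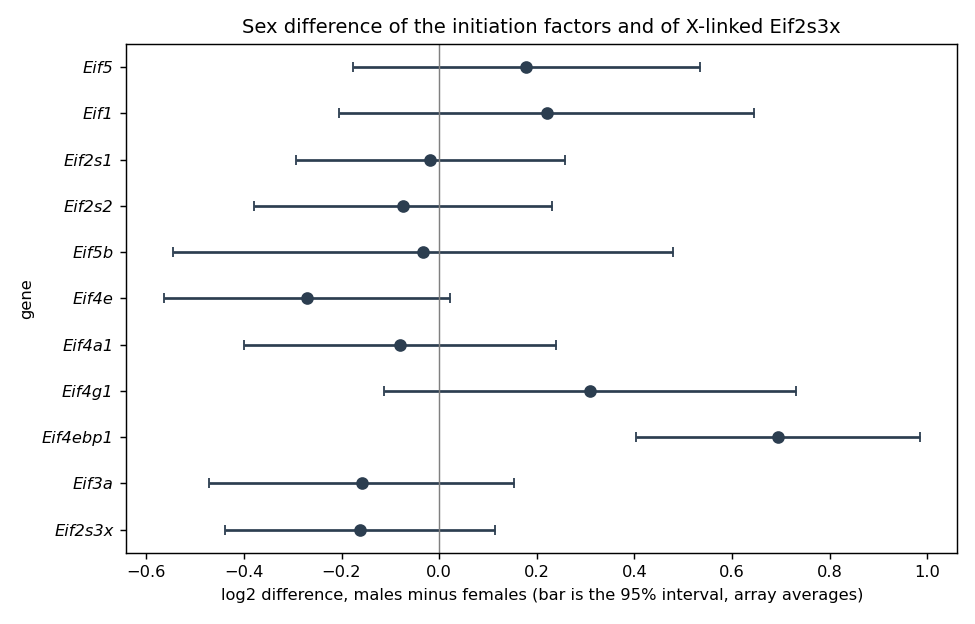
Difference between male and female livers (log2 units, males minus females, 4 livers each) for the 10 genes and for the brighter probe of Eif2s3x. The bar is the 95% interval from array averages. The interval of Eif4ebp1, from 0.40 to 0.98, is the only one among the 10 genes that does not reach 0.

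Along with Eif4ebp1, 5 of 5 red cell markers tested were higher in males, with a median of 2.21 log2 units. Their mean level ran from 11.84 to 12.77 in females and from 14.32 to 14.56 in males. The 9 proliferation genes tested were also higher in males (median 1.02), with mean levels of 6.93 to 7.93 in females and 7.73 to 9.53 in males. Only 4 of these 9 were well above background in all 8 livers. Their part in the sex difference of Eif4ebp1 was not tested.

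The gamma subunit of eIF2, which binds GTP and the initiator transfer RNA, is encoded in mice on both sex chromosomes, by Eif2s3x and Eif2s3y. The signal of Eif2s3y cleared the background in 4 of 4 males and in 0 of 4 females. Its males lay at 10.25 to 10.59, at least 14.1-fold above the females, whose mean was set no lower than the dimmest signals called above background. It passed with a limma adjusted p of 0.00662, and was the only gene of the other initiation lists to do so in the separate-channel fit. Because females carry no Y chromosome and the probe passed the filter through males alone, this outcome was fixed in advance. Eif2s3x had 2 probes that disagreed. The brighter differed by −0.16 between males and females (limma adjusted p 0.375 with array averages). The dimmer read 9.53 to 9.80 in males and 8.21 to 8.43 in females, a difference of 1.37. For the dimmer probe the limma adjusted p was 0.0853 in the separate-channel fit and 0.00562 with array averages. The copies on both sex chromosomes are close in sequence, and whether the dimmer Eif2s3x probe also binds Eif2s3y transcripts was not tested, so its level is uncertain.

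The ratio of mutant over wild type was also compared between the sexes, which rests on 2 arrays each and 1 residual degree of freedom. None of the members passed, with limma adjusted p from 0.855 to 0.927 and differences of the ratio, males minus females, from −0.35 to 0.26. The ratio was lower in males than in females for 6 of the 10 members and for 46.2% of all genes. Across all genes 0 of 17531 passed (0%), and 1022 (5.83%) had an unadjusted p under 0.05. For Eif5 the difference was −0.14, from −0.58 and −0.44 on the male arrays and −0.38 and −0.37 on the female arrays. Eif2s2 was above 0 on both female arrays (0.30 and 0.11) and below 0 on both male arrays (−0.05 and −0.03). Eif4ebp1 had the opposite pattern, −0.07 and −0.21 in females against 0.12 and 0.04 in males. Neither difference passed (limma adjusted p 0.876 and 0.882).

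A further 58 initiation factors and regulators were listed beside the members, and 57 were tested. Of these, 32 had log2 ratios above 0 and 25 below 0, with a median of 0.02. The sign was the same on all 4 arrays for 6 higher and 6 lower in mutants, where the background was 8.99% and 8.68% of all genes. None passed the genotype test, and 6 of the 57 had an unadjusted limma p under 0.05, beside 8.9% of all genes. Array 2 gave the ratio largest in size for 38 of these 57 genes, 3 of the 10 members and 51.7% of all genes.

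Among relatives of eIF1 and eIF5, 10 of 13 had ratios above 0. The highest log2 ratios were those of Bzw2 (0.30), an eIF5 mimic, and Eif6 (0.25), which keeps the large ribosomal subunit from joining early. The lowest were those of Denr (−0.16), a factor of recycling and reinitiation, and Bzw1 (−0.12). Eif6 reached its value through array 2 alone (1.22), with −0.02, −0.06 and −0.15 on arrays 1, 3 and 4. Bzw2, in contrast, was above 0 on all 4 arrays.

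Of the partners of Eif2s1 and Eif2s2, 5 of 13 had ratios above 0. Eif2b5, the catalytic subunit of the exchange factor that reloads eIF2 with GTP, stood at 0.35 ± 0.13 (SE) and was above 0 on all 4 arrays. Eif2ak2, the kinase PKR that senses double-stranded RNA, stood at 0.27 with array 4 below 0. Eif2ak3, the kinase PERK of the endoplasmic reticulum, stood at −0.16. Eif2s3x stood at −0.18, below 0 on all 4 arrays. Eif2s3y stood at −0.22 and 0.05 on the male arrays 3 and 4, and its female arrays were not well above background.

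Beside Eif3a, 9 of 13 other eIF3 subunits had ratios above 0. Eif3i had the highest, 0.63 ± 0.22 (SE), with 0.34, 1.63, 0.18 and 0.36 on arrays 1 to 4. Eif3f followed at 0.34 and was also above 0 on all 4 arrays. Eif3c was the lowest at −0.32 and lay below 0 on all 4 arrays, followed by Eif3j2 at −0.18. In all, 3 of the 13 kept 1 sign on all 4 arrays, beside 17.7% of all genes.

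Of the other eIF4 factors and cap regulators, 8 of 18 had ratios above 0. Eif4a2, the helicase paralogue of Eif4a1, had the lowest log2 ratio at −0.44 ± 0.13 (SE), with −0.20, −0.86, −0.37 and −0.34 on arrays 1 to 4. Its mutants (12.54 to 12.83) all lay below its wild types (13.03 to 13.40), as for Eif5, beside 2.2% of all genes without overlap. Mknk2, a kinase that phosphorylates eIF4E, stood at −0.41, carried by the female arrays (−1.08 and −0.78) with −0.01 and 0.22 in males. The highest were Eif4e2 (0.19), a cap-binding homologue of Eif4e, and Eif4a3 (0.18), a helicase of the exon junction complex. Of 10 elongation and termination factors, 6 had ratios above 0. The extremes there were Eef1g (0.39) and Eef1e1 (0.34) against Eef1d (−0.24) and Eef1a1 (−0.14).

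By sex, 22 of the 57 other initiation genes had higher levels in males and 35 in females. With array averages, 2 were called up in males and 5 up in females, beside 5.73% and 5.76% of all genes, so both counts are near the background. These genes were named after their values were seen. Those higher in males were Eif3c (0.63) and Eif2s3y, whose outcome was fixed by its place on the Y chromosome. Those lower in males were Ppp1r15a (−1.07), a phosphatase subunit that reverses eIF2 phosphorylation, Eif3e (−0.90), Eif4g2 (−0.80), Eif2ak4 (−0.69) and Eif2b3 (−0.62). Leaving Eif2s3y aside, their limma adjusted p with array averages lay between 0.0220 and 0.0433. The sexes overlapped for Eif3e, where female wild type 2 (8.61) lay below male wild type 4 (8.67). They also overlapped for Eif2b3, which was well above background in 6 of the 8 livers. The females of Ppp1r15a spread widely, from 10.33 to 11.97, against 9.89 to 10.33 in males. Its dye term was −0.74 log2 units of Cy5 over Cy3, and its limma adjusted p in the separate-channel fit was 0.424. Abce1, the ribosome recycling factor in the elongation and termination list, was also lower in males (−0.80, limma adjusted p 0.0224 with array averages).

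The genes whose pattern over the 8 livers was most like that of Eif5 were found by the root mean square difference of centred log2 levels, over 11828 named genes. The closest were Eva1a (0.093), Mical3 (0.118), Mib1 (0.120), Vwce (0.125) and Usp47 (0.129), where the median gene stood at 0.359. Each of the 5 had a ratio below 0 on all 4 arrays, which follows from picking them for likeness to Eif5 and is no separate result. A flat profile would stand at 0.266 from Eif5. Of the members, Eif4g1 was the closest to Eif5 at 0.226, rank 718, and Eif5b the farthest at 0.638. Eif4a1 (0.256) and Eif1 (0.256) were also nearer to Eif5 than a flat profile was, and the other members were not. The 8 livers share arrays and dyes, so these distances are a description only.

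The members also differed in how far they varied over the 8 livers. The SD of the log2 level was 0.57 for Eif5b (percentile 92.1 of all genes) and 0.38 for Eif4ebp1 (percentile 77.3). It was 0.29 for Eif4g1, 0.28 for Eif5, 0.22 for Eif1, 0.20 for Eif4e, 0.19 for Eif4a1 and 0.16 for Eif3a. The spread of Eif5b lay between dyes, that of Eif4ebp1 between sexes and that of Eif5 between genotypes, as the levels above show.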

How the data were processed

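Total RNA of 8 frozen mouse livers was measured on 4 2-colour Agilent arrays of 1 slide. Per the file headers, the deposited files are Agilent Feature Extraction 10.7.3.1 output with an intensity on a linear scale per spot and channel (the median over pixels, that of the surrounding background, and a signal processed by the software) and, of other kinds, 0 or 1 marks for background, saturation and outliers. The deposited table of the whole series holds log2 values whose scale and centring are not stated in the sources used here. Its ratios correlated with the scanner ratios at 0.930, 0.952, 0.831 and 0.824 on arrays 1 to 4, across probes, which are not independent. Its column medians lay between −0.0136 and 0.0150. A further 76 columns of measurements in the array files were left aside. Between 0 and 40 spots per sample were saturated, and 0 pairs of samples had identical signals. The number of arrays limits the precision.

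The mutant carried Cy5 on arrays 1 and 3 and Cy3 on arrays 2 and 4. Signals were corrected with normexp (offset 50) and loess within arrays in limma 3.58.1 (statmod 1.5.0, R 4.3.3, and version 1.17.8 of the package data.table). Control spots had no weight, outlier spots were left out and spots of a probe were averaged. Of 55681 probes, 22031 were well above background in at least 4 of 8 samples, and the brightest probe per gene gave 17531 genes or unnamed transcripts. Symbols came from RefSeq accessions (GRCm38.p6). Log2 ratios were fitted with genotype and dye terms (2 residual degrees of freedom), and with a term per sex for the difference between sexes. Levels and sex used Aquantile normalization and a separate-channel fit (within-spot correlation 0.793), with Benjamini-Hochberg adjustment over all genes and 0.05 as the threshold. The median signal stands in for the mean signal.

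Samples with the same number share an array, so the numbers pair them. Their deviations from the group means correlated at 0.684, 0.176, 0.554 and 0.644 across genes, and the array is the block. All fits were tested on simulated data. The separate-channel sex fit estimated a simulated within-spot correlation of 0.793 as 0.966 and called too few genes, but not when given 0.793. With array averages, 84% of simulated sex differences of 2 log2 units were called, but only 4% of those of 1 log2 unit.

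The members and gene lists were chosen with earlier results of these data known. Named besides the members were Eif2s3x and Eif2s3y, genes past the threshold for sex or its difference, the 2 highest and 2 lowest ratios of each pathway list, and the 5 genes most like Eif5. Alternatives were processed signals, no background correction, no filter, the mean over probes, the series table, no dye term, no block, quantile normalization and each array left out. Figures were drawn with matplotlib 3.10.9 and pandas 2.3.3 under Python 3.11.15.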

Additional observations from a re-analysis of the deposited data

How the results depend on the processing

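The genotype test called 0 genes in the reported fit, 1 with no filter on dim probes, 1 with no dye term and 3 with no array block. It called 0 without arrays 1, 2 or 3 and 1490 without array 4, and the cause was not tested. The 110 alternative log2 ratios of the 10 members each moved by less than the SD over arrays, which for Eif5b (1.12) holds the dye difference. Leaving out an array could not move a ratio by more, and no filter, no dye term and no block returned the same ratios. This count is therefore no measure of how robust the ratios are. Eif5 stayed between −0.49 and −0.39. The sign of the ratio changed under at least 1 alternative for 6 of the 10, Eif2s1 (−0.03 to 0.18), Eif2s2 (−0.0044 to 0.17), Eif5b (−0.34 to 0.07), Eif4a1 (−0.26 to 0.10), Eif4ebp1 (−0.09 to 0.03) and Eif3a (−0.05 to 0.22). The sex test called 37 genes in the reported fit and 3193 with no dye term. Without the array as a block it called 3193 genes, with array averages (added after the data were seen) 2011, and without arrays 1, 2, 3 and 4 it called 184, 1288, 84 and 62, the same counts in the separate-channel fit and with array averages. Processed signals, no background correction, no filter, the mean over probes, the series table and quantile normalization gave 29 to 41. Eif4ebp1 kept a sex difference of 0.64 to 0.75 over 17 alternatives, with limma adjusted p from 0.00732 to 0.210. It passed with no dye term (0.00732), no array block (0.00990) and array averages. The sex difference changed sign with the mean over probes for Eif2s1 (0.12), Eif2s2 (0.082) and Eif2s3x (0.60), for Eif5b without array 1 (0.19) or 4 (0.16), and for Eif4a1 without array 3 (0.024). With 1 array left out, Eif5b ranged from −0.26 to 0.19, Eif4a1 from −0.19 to 0.024, Eif1 from 0.00017 to 0.44, Eif5 from 0.025 to 0.33 and Eif4g1 from 0.14 to 0.49. The difference of the ratio between sexes called 0 genes under the 6 alternatives run, with 703 to 2062 at an unadjusted p under 0.05. Leaving out an array there left no residual degrees of freedom, so it was not run. With 2 arrays per sex, differences of the members as large as 1 log2 unit could be missed.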

Other observations

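In each of 40 groups (the 10 members by genotype and by sex, 4 livers each) the farthest liver was set against Dixon's critical value for 4 values, and 0 groups passed it. The median log2 ratio of mutant over wild type was −0.12 for 5 lymphocyte markers, −0.01 for 9 sinusoidal endothelial markers, 0.06 for 8 stellate and fibroblast markers, −0.05 for 4 cholangiocyte markers and −0.13 for 5 red cell markers. None of these markers passed the limma genotype test, and 3 had an unadjusted p under 0.05, beside 8.9% of all genes.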
